A study of Rattus norvegicus with 6 samples.

Results

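Bile ducts and the ductular reaction were followed through 10 marker gene names: Krt7, Krt8, Krt18, Krt19, Tspan8, Cd24, Epcam, Sox9, Cftr and Prom1. Members were the probes whose platform symbol is one of these names. There were 7 such genes, of 13337 genes with a symbol on the array, each read by 1 probe, while Krt18, Sox9 and Cftr had none under their names in the annotation used here. All 7 probes passed the filter on dim probes.

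The samples were non-tumor liver from 6 male Wistar rats, 1 Illumina bead array each. Every rat had been given diethylnitrosamine (DEN), a carcinogen activated in hepatocytes that scars the liver and gives tumors, at 50 mg/kg once a week over 18 weeks. The EGCG group (EGCG_228, EGCG_234 and EGCG_236) drank 0.02% epigallocatechin gallate, the main catechin of green tea, on most days from week 13 to week 18. The water group (water_224, water_227 and water_237) drank water without it over those weeks, and all rats were killed in week 19. The labels do not give the ages of the rats, and there was no liver without DEN, so that EGCG is compared within injured livers only. Each array is a different rat, and the labels pair no rats across groups.

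Bile ducts are lined by cholangiocytes, simple epithelial cells that modify bile. In chronic liver injury, ducts and progenitor-like cells at the portal edge multiply and branch, which is called the ductular reaction, and it commonly accompanies fibrosis. Cholangiocytes carry the keratins 7 and 19, which mature hepatocytes lack, together with the keratins 8 and 18, which hepatocytes make as well. EpCAM, CD24 and prominin-1 mark ductular cells at the cell surface. The comparison asks how these transcripts differ when EGCG is added to the drinking water of DEN-treated rats.

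All 7 markers had a lower mean in EGCG rats than in water rats, and none passed the threshold of the test. The log2 differences (EGCG minus water, here and throughout) ran from -0.35 for Krt8 to -1.39 for Krt19, with a median of -0.63, where the median over all 9193 genes tested was 0.0037 and 48.9% of genes had a difference below 0. At a limma adjusted p under 0.05, 0 of the 7 were called, where 0.566% of all genes were called. At an unadjusted limma p under 0.05, all 7 were lower with EGCG, against 6.31% of all genes. In 6 of the 7, every EGCG rat lay below every water rat, which held for 8.23% of all genes. The members were chosen with earlier results of these data known, so these counts beside the shares of all genes are a description and not a test. In bulk liver, fewer cells of a type and less RNA per cell cannot be told apart.

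**Figure D1:**
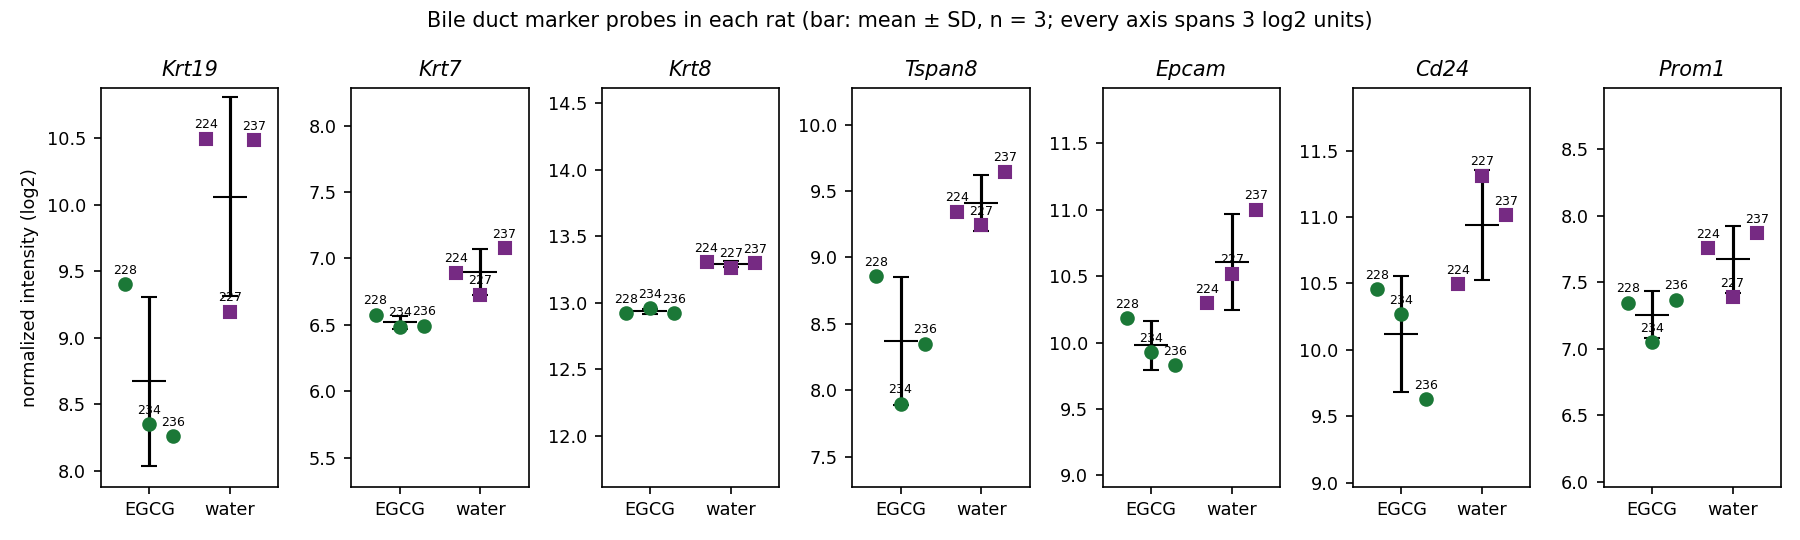
Normalized log2 intensity of each of the 7 bile duct marker probes in the 6 rats, with EGCG rats as circles and water rats as squares, numbered by rat, and bars for the mean ± SD of 3 rats. Every axis spans the same 3 log2 units at its own height. The groups overlap for Krt19 only, where water_227 (9.20) lies below EGCG_228 (9.40), and the distance between the group means is smallest for Krt8.

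Krt19 encodes the type I keratin that is used in pathology to stain bile ducts. Its normalized log2 intensity was 9.40, 8.35 and 8.26 in EGCG_228, EGCG_234 and EGCG_236, against 10.50, 9.20 and 10.49 in water_224, water_227 and water_237. The groups overlapped, since water_227 lay below EGCG_228. Krt19 averaged 8.67 ± 0.64 in EGCG rats and 10.06 ± 0.75 in water rats (SD, n = 3 each), a log2 difference of -1.39 or 2.62-fold (SE 0.37, limma adjusted p = 0.172). Before normalization the linear intensities were 707, 358 and 305 in the EGCG rats, against 1801, 677 and 1106 in the water rats. Krt19 had both the largest difference and the widest spread of the 7 markers, 2.24 log2 units from the lowest rat to the highest. Without water_227 the difference was -1.82 (limma adjusted p = 0.0691), the closest that leaving out any rat brought it to the threshold.

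Krt7 encodes the type II keratin that pairs with keratin 19 in ductal epithelium. It stood at 6.58, 6.48 and 6.49 in EGCG_228, EGCG_234 and EGCG_236, against 6.89, 6.73 and 7.08 in water_224, water_227 and water_237. The groups did not overlap, but the probe was the dimmest of the 7 and lay near the middle of the arrays. Its non-normalized intensities of 111 to 123 in EGCG rats compare with array medians of 112 to 120 for the same rats, and those of 137 to 156 in water rats with medians of 113 to 120. No detection p-values were used, so that it is unknown whether the probe was above background in EGCG rats. The log2 difference was -0.38 (SE 0.11, limma adjusted p = 0.227). An offset of 50 is added to all intensities before the log, which compresses dim probes, and with an offset of 16 the difference was -0.56 (limma adjusted p = 0.218).

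Krt8 encodes the type II keratin of simple epithelia, made by hepatocytes and cholangiocytes alike. It stood at 12.92, 12.96 and 12.92 in EGCG_228, EGCG_234 and EGCG_236, against 13.31, 13.26 and 13.30 in water_224, water_227 and water_237. After quantile normalization the rats of each group lay close together, with SDs of 0.020 in EGCG rats and 0.023 in water rats. The groups stood apart by far more than that spread. EGCG_228 and EGCG_236 held the same rank within their arrays, and so the same normalized value. Before normalization the linear intensities were 7599, 7963 and 7826 in the EGCG rats, against 11776, 11005 and 8078 in the water rats. Water_237 thus lay little above EGCG_234 before scaling. The log2 difference was -0.35, or 1.28-fold. The moderated SE was 0.14, because limma draws each probe's variance toward that of other probes, with the trend those of like brightness. The limma adjusted p was 0.403. Without the trend, the limma adjusted p was 0.202, so the gene was not called under that variance model either. With 3 rats a group, 0.1 is the smallest two-sided p of an exact permutation test, whatever the separation. In RefSeq's GRCr8 annotation, Krt8 lies on chromosome 7 with 1 gene between it and Krt18, its usual partner keratin, which had no probe here.

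Tspan8 encodes a tetraspanin, a membrane protein with 4 passes that organizes other surface proteins into complexes. In rat tumor cells it is known to associate with EpCAM. It was the marker closest to the threshold, and ranked 94th of 9193 genes by p. Its values were 8.86, 7.90 and 8.35 in EGCG_228, EGCG_234 and EGCG_236, against 9.34, 9.24 and 9.65 in water_224, water_227 and water_237. The groups did not overlap, and the EGCG rats were spread more widely (SD 0.48) than the water rats (SD 0.21). The log2 difference was -1.04, or 2.06-fold (SE 0.23, limma adjusted p = 0.0917).

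Epcam encodes an adhesion molecule of simple epithelia that mature hepatocytes lose. It stood at 10.18, 9.93 and 9.83 in EGCG_228, EGCG_234 and EGCG_236, against 10.30, 10.52 and 11.00 in water_224, water_227 and water_237. The groups did not overlap, with a gap of little more than 0.1 log2 units between EGCG_228 and water_224. The log2 difference was -0.63 (SE 0.20, limma adjusted p = 0.263). It was -0.44 without water_237 (limma adjusted p = 0.526), the highest of the water rats.

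Cd24 encodes a small glycoprotein anchored to the outer membrane, found on ductular and progenitor cells and on some leukocytes. It stood at 10.46, 10.27 and 9.63 in EGCG_228, EGCG_234 and EGCG_236, against 10.50, 11.31 and 11.02 in water_224, water_227 and water_237. EGCG_228 and water_224 were almost level, so that the groups were separate only by a narrow margin. The log2 difference was -0.82, or 1.77-fold (SE 0.25, limma adjusted p = 0.249).

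Prom1 encodes prominin-1 (CD133), a pentaspan protein of membrane protrusions used to isolate liver progenitor cells. It stood at 7.35, 7.05 and 7.37 in EGCG_228, EGCG_234 and EGCG_236, against 7.76, 7.39 and 7.87 in water_224, water_227 and water_237. Water_227 lay just above the EGCG rats. The log2 difference was -0.42 (SE 0.16, limma adjusted p = 0.375).

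The promoters of Tspan8 and Epcam are shown because their proteins are known to associate and their transcripts had lower means in the same rats, while the letters before their start sites differ in kind. The sequences are the 250 bases before the gene start in RefSeq's GRCr8, on the strand of the gene and 5′ to 3′. Capitals mark matches to GGGCGG (GC box) or TGANTCA (AP-1) on either strand.
Tspan8, chr7:53330937-53331186, plus strand: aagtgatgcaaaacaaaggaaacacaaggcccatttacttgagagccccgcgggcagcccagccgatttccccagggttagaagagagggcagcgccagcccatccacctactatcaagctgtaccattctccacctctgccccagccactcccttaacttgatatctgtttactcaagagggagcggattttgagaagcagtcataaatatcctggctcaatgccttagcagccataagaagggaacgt
Epcam, chr6:12649679-12649928, minus strand: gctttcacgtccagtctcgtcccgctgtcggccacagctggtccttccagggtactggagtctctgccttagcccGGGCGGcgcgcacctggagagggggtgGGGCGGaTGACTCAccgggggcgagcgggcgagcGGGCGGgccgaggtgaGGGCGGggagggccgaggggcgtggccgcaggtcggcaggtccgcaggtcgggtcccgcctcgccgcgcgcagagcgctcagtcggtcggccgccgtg
The Epcam window held 33 CpG dinucleotides and a GC share of 75.6%, and the Tspan8 window 6 and 51.2%, where the median of 33465 promoter windows was 5 and 51.2%. Epcam had 4 GC boxes, a motif in 30.5% of all windows, and 1 AP-1 match, a motif in 6.34%. Tspan8 had neither. A window was also held for Krt8, Cd24 and Prom1 among the measured markers, but not for Krt7 or Krt19. GGAATG, the core of the sites of TEAD factors, and TGGGAA, the core of the sites of the Notch effector RBPJ, were searched on both strands too. Neither occurred in the windows of these 5 measured markers, where 12.1% and 22.1% of all windows held them.

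The markers did not order the rats alike within a group. EGCG_228 was the highest EGCG rat for 5 of the 7 (Krt19, Krt7, Tspan8, Epcam and Cd24), and its median deviation from the water mean was -0.42, against -0.67 in EGCG_234 and -0.78 in EGCG_236. Over all genes, the medians of these 3 rats lay between 0.00039 and 0.0040. Among the water rats, water_227 was the lowest for 5 markers (Krt19, Krt7, Krt8, Tspan8 and Prom1) and the highest for Cd24. Water_237 was the highest of all 6 rats for 4 markers. Leaving it out brought the median difference of the 7 to -0.44, and leaving out any other rat gave -0.55 to -0.78.

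**Figure D2:**
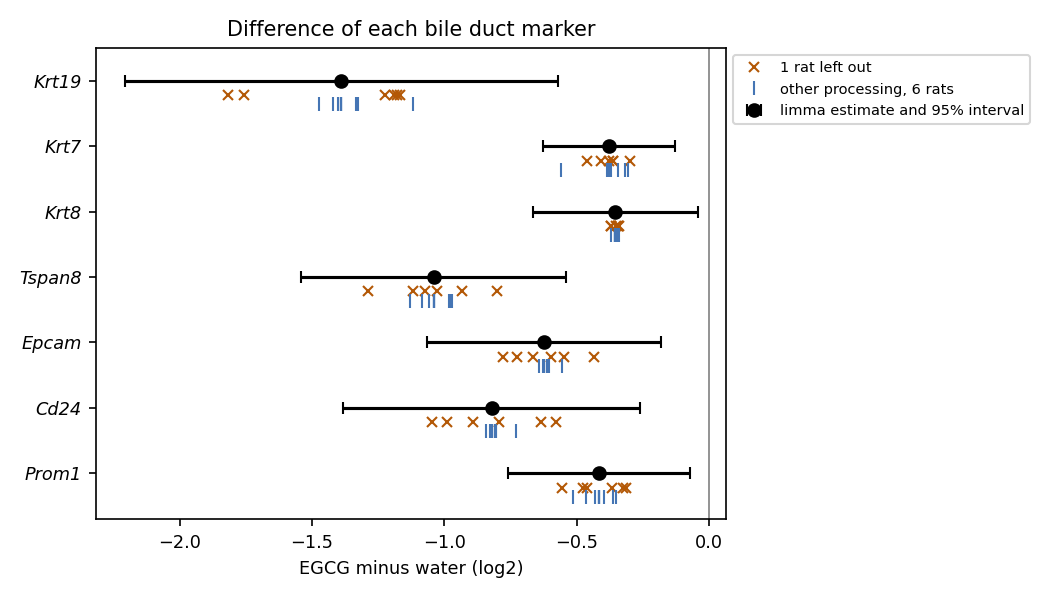
Log2 difference (EGCG minus water) of each bile duct marker, with the limma estimate and its 95% interval as a black point and bar, the estimates with 1 rat left out as crosses and those under other processing of the 6 rats as ticks. Every estimate lies below 0, and Krt19 moves most with the choice of rats, from -1.17 to -1.82.

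Whether the markers differed by unequal amounts was examined relative to Krt8, the one that hepatocytes share, by taking each marker's log2 ratio to Krt8 within each array. This comparison was chosen after the values were seen. The ratio of Tspan8 to Krt8 was lower with EGCG by a log2 difference of -0.69 (exact permutation test, two-sided, p = 0.1, the smallest possible, 0.45 after adjustment over 6 comparisons), and that of Krt19 by -1.03 (exact permutation p = 0.2, adjusted 0.45). For Cd24 and Epcam the ratio differed by -0.47 and -0.27 (exact permutation p = 0.3 for each, adjusted 0.45). For Krt7 and Prom1 it differed by -0.025 and -0.062 (exact permutation p = 0.8 and 0.5, adjusted 0.8 and 0.6), and both values turned positive with the authors' normalized intensities (0.037 and 0.0032), as did that of Krt7 without background correction (0.049). With an offset of 16 both lay further below 0 (-0.20 and -0.16). No ratio could pass 0.05 in a design of this size, and the log2 ratio of Krt19 to Krt8 had an SD of 0.64 in EGCG rats and 0.73 in water rats.

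Genes with other roles in bile ducts did not share the direction of the markers throughout. Over 7 lists of biliary and signaling genes, 86 genes other than the markers passed the filter, of 154 listed. Of these, 2 fell with EGCG (Vim and Ccn2), 0 rose and 84 did not pass, where 0.446% of all genes fell. Their median difference was -0.075, with 53 of the 86 below 0. Every EGCG rat lay below every water rat in 17 of the 86 and above in 4, where 757 and 758 of all 9193 genes did. The lists were written with earlier results of these data known.

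Ion and fluid transport is the main task of cholangiocytes. Of 18 transport genes, 8 passed the filter and 0 passed the test, with 3 differences below 0, 5 above and a median of 0.040. Aqp1, the water channel of cholangiocytes and endothelium, differed by -0.65 (limma adjusted p = 0.291). Sctr, the secretin receptor that starts ductal bicarbonate secretion, differed by -0.22 (limma adjusted p = 0.737). Slc4a2, the chloride-bicarbonate exchanger that works beside the CFTR channel, differed by 0.25 (limma adjusted p = 0.676), and Slc10a2, the bile acid importer, by 0.084 (limma adjusted p = 0.862). All 4 values moved by more than 1.5 times with the rats included: with 1 rat left out they ran from -0.83 to -0.42 for Aqp1, -0.36 to -0.079 for Sctr, 0.12 to 0.36 for Slc4a2 and 0.017 to 0.17 for Slc10a2.

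Of 33 other genes of biliary identity and epithelial junctions, 19 passed the filter and 0 passed the test, with 12 differences below 0 and a median of -0.086. Elf3, an epithelial transcription factor, differed by -0.38 (limma adjusted p = 0.252), with no overlap between groups. Rab25, an epithelial trafficking GTPase, differed by -0.25 and St14, the protease matriptase, by -0.21 (limma adjusted p = 0.502 and 0.645), also without overlap. Cldn4, a tight junction claudin of ductal cells, differed by -0.22 (limma adjusted p = 0.65). Spp1, osteopontin, which cholangiocytes and activated stellate cells secrete, stood at 9.06, 7.58 and 8.28 in EGCG_228, EGCG_234 and EGCG_236, against 8.83, 8.86 and 8.96 in water_224, water_227 and water_237. The highest rat for Spp1 was thus EGCG_228, and the difference of -0.58 had a limma adjusted p = 0.546. With 1 rat left out, the differences ran from -0.96 to -0.21 for Spp1, -0.32 to -0.087 for Cldn4 and -0.26 to -0.13 for St14, and with an offset of 16 that of Elf3 was -0.61. Cldn7 had no probe under its name.

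Among tetraspanins and partners of EpCAM, 9 of 13 genes passed the filter and 0 passed the test, with 8 differences below 0. Cd63, a tetraspanin of late endosomes, stood at 8.82, 8.94 and 8.81 in EGCG_228, EGCG_234 and EGCG_236, against 9.67, 9.50 and 9.48 in water_224, water_227 and water_237, a difference of -0.69 (SE 0.14, limma adjusted p = 0.0808). The groups did not overlap. Cd44, the hyaluronan receptor, differed by -0.37, Ptgfrn, a tetraspanin-binding protein, by -0.24 and Itgb4, the integrin beta 4 chain of hemidesmosomes, by -0.17 (limma adjusted p = 0.359, 0.638 and 0.651). Cd9 had no probe under its name.

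Among 20 other genes of intermediate filaments and desmosomes, 10 passed the filter, 1 fell and 9 did not pass. Vim, the vimentin of mesenchymal cells, fell by 1.18 in log2 units (limma SE 0.18, adjusted p = 0.0231). The call was lost without EGCG_228, EGCG_234 or water_227 (limma adjusted p = 0.0719, 0.132 and 0.0776). Krt20, a type I keratin of intestinal and urothelial cells, stood at 7.46, 7.01 and 7.39 in EGCG_228, EGCG_234 and EGCG_236, against 8.31, 7.81 and 8.68 in water_224, water_227 and water_237. The groups did not overlap, and the difference was -0.98 (SE 0.21, limma adjusted p = 0.0894). Des, the desmin of stellate and muscle cells, differed by -0.34 and the epidermal keratin Krt10 by 0.22 (limma adjusted p = 0.497 and 0.715). Krt10 differed by 0.036 without water_227 and by 0.38 without water_224.

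Notch signaling directs progenitor cells to the biliary fate. Of 24 Notch genes, 13 passed the filter and 0 passed the test, with 7 differences below 0 and a median of -0.033. The ligand Jag1 differed by -0.36 (limma adjusted p = 0.423), with EGCG_228 (7.02) above water_224 (6.91). The receptor Notch2 differed by -0.078 and the target Hes1 by -0.059 (limma adjusted p = 0.86 and 0.971), and the sign for Hes1 changed without EGCG_236 (0.10), without water_224 (0.26) and with array weights (0.055). The protease Adam10 differed by 0.20 and Ncstn, a subunit of gamma-secretase, by -0.26 (limma adjusted p = 0.55 and 0.636). Adam10 differed by 0.042 when its probes were averaged and by 0.31 with an offset of 16, and with 1 rat left out Ncstn ran from -0.35 to -0.10 and Notch2 from -0.12 to -0.020. The means of Notch2 and Adam10 (6.48 and 6.55) lay near the filter, so that it is unknown whether these probes were above background.

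YAP is a transcriptional coactivator that drives ductal growth in liver. Of 23 names in its list, 13 genes passed the filter, 1 fell and 12 did not pass, with a median of -0.072. Ccn2, connective tissue growth factor, a YAP and TGF-beta target made by many cell types, fell by 1.93 in log2 units (limma SE 0.24, adjusted p = 0.00976), and stayed past the threshold with any 1 rat left out. The related target Ccn1 differed by -0.70, Ankrd1 by -0.24 and Ajuba, a LIM-domain regulator, by 0.31 (limma adjusted p = 0.217, 0.497 and 0.611), the last being 0.17 without EGCG_228. Yap1 itself lay below the filter. Of 26 signals of the ductular reaction, 15 passed the filter and 0 passed the test, with 10 differences below 0. Tnfrsf12a, the receptor of the ductular mitogen TWEAK, stood at 8.32, 7.97 and 8.52 in EGCG_228, EGCG_234 and EGCG_236, against 9.0, 8.80 and 8.91 in water_224, water_227 and water_237. Its groups did not overlap, and the difference was -0.64 (SE 0.16, limma adjusted p = 0.159). Lgals3, galectin 3, differed by -0.49, Tgfb2 by -0.47 and Ctnnb1, beta-catenin, by -0.32 (limma adjusted p = 0.236, 0.378 and 0.435), and Tgfb2 by -0.27 without water_237.

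**Figure D3:**
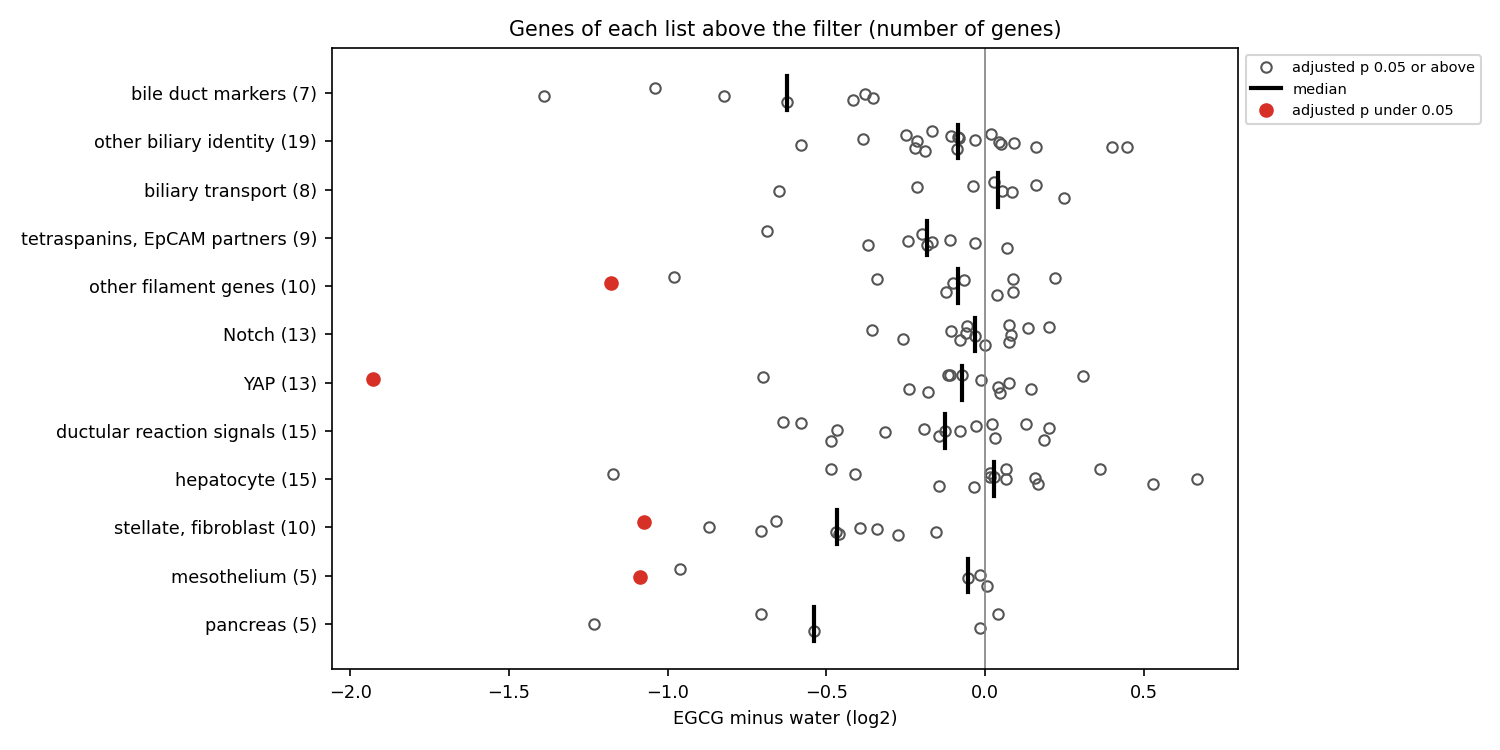
Log2 difference (EGCG minus water) of each gene above the filter in 12 lists, with the list's number of genes in brackets, its median as a black bar and genes past the threshold filled. The 7 bile duct markers all lie below 0, while the transport, Notch and hepatocyte lists lie on both sides of it, and the 10 stellate and fibroblast genes lie below it too.

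Markers of other cell types were read in the same arrays. Of 18 hepatocyte genes, 15 passed the filter and 0 passed the test, with 10 differences above 0 and a median of 0.027. Their summed normalized intensity was 157404 to 191257 in EGCG rats and 169525 to 182649 in water rats. The brightest of them hold top ranks of each array, where quantile normalization gives all rats the same set of values. Alb, for example, stood at 15.32 in both EGCG_236 and water_237. Similar sums are thus partly set by the scaling and do not measure hepatocyte content. Alb, albumin, differed by 0.065 and Hnf4a, the hepatocyte nuclear factor, by -0.035 (limma adjusted p = 0.951 and 0.979), and both signs changed with the rats included. Tat, tyrosine aminotransferase, differed by -1.17, Ttr, transthyretin, by 0.53, Cyp2e1, which activates DEN, by 0.67, and Asgr1, the asialoglycoprotein receptor, by 0.36 (limma adjusted p = 0.203, 0.295, 0.457 and 0.541). Without water_224 Tat differed by -0.69, without EGCG_234 Asgr1 differed by 0.23, and without EGCG_236 Ttr and Cyp2e1 passed the threshold (0.71 and 1.06, limma adjusted p = 0.0405 and 0.0168). Without EGCG_228 Cyp2e1 differed by 0.44. Of 14 stellate cell and fibroblast genes, 10 passed the filter, with 10 differences below 0, and 1 fell (Dcn, decorin, by 1.07, limma adjusted p = 0.0231). Timp1, an inhibitor of matrix proteases, differed by -0.87, Lum, the proteoglycan lumican, by -0.71 and Col1a2, a chain of collagen I, by -0.66 (limma adjusted p = 0.0615, 0.11 and 0.166). The sum of the 10 genes was 4753 to 5666 in EGCG rats and 7058 to 8662 in water rats. Of 12 endothelial genes, 6 passed the filter, with 4 differences below 0 and a median of -0.33, and 1 fell (Vwf, von Willebrand factor, by 0.84, limma adjusted p = 0.0332). Emcn, endomucin, differed by -0.81, and the receptors Tie1 and Tek by -0.54 and -0.12 (limma adjusted p = 0.144, 0.263 and 0.831). Tie1 differed by -0.36 without water_224, and Tek ran from -0.24 to -0.050 with 1 rat left out. Lyve1 and Fcgr2b, which sinusoidal endothelium makes, were named after their values were seen and differed by 0.021 and 0.0083 (limma adjusted p = 0.982 and 0.996). The sum of the 6 genes was 2240 to 2467 in EGCG rats and 2805 to 3288 in water rats. The call of Dcn was lost without EGCG_228, EGCG_234 or water_227 (limma adjusted p = 0.0821, 0.133 and 0.0942), and that of Vwf without any 1 rat but EGCG_236 (0.0781 to 0.130).

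Keratins 8 and 19 are also made by mesothelium, the layer that covers the liver, and by pancreatic ducts. The pancreatic list below holds mainly genes of digestive enzymes, which acinar cells make, and none chosen for ducts. Pancreatic ducts were therefore not read. Of 10 mesothelial genes, 5 passed the filter, with 4 differences below 0 and a median of -0.053, and Wt1 lay below the filter. Ptgis, prostacyclin synthase, fell by 1.09 (limma adjusted p = 0.0286). That call was lost without EGCG_228, EGCG_234, water_227 or water_237 (limma adjusted p = 0.110, 0.137, 0.0643 and 0.0723). Msln, mesothelin, differed by -0.96 (limma adjusted p = 0.0909), while Upk1b, a uroplakin, and Bnc1, a zinc finger factor, differed by -0.053 and -0.015 (limma adjusted p = 0.93 and 0.978), with signs that changed with the rats included. The sum of the 5 genes was 553 to 772 in EGCG rats and 798 to 928 in water rats. Without Ptgis and Msln, left out after the values were seen, the sums of the other 3 overlapped (361 to 488 in EGCG rats, 399 to 410 in water rats). The genes left out had the largest differences of the list, so that this overlap follows from the choice and is not a separate result.

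Of 17 pancreatic genes, 5 passed the filter, with 4 differences below 0 and a median of -0.54, while Prss1, Prss2, Pnlip and Ptf1a lay below it. Their sum was 568 to 672 in EGCG rats and 802 to 1445 in water rats. Cpa1, a carboxypeptidase, differed by -1.23, Cela1, an elastase, by -0.70, Ctrc, a chymotrypsin, by -0.54 and Cpb1, another carboxypeptidase, by 0.042 (limma adjusted p = 0.16, 0.239, 0.621 and 0.957). Without water_237, Ctrc differed by -0.12 and Cpb1 by -0.084. Of 16 leukocyte genes, 10 passed the filter and 0 passed the test, with 7 differences below 0, 3 above and a median of -0.11. S100a8, a calgranulin of neutrophils, differed by -1.32 (limma adjusted p = 0.0893). Cd8a, of cytotoxic T cells, differed by 0.39, with every EGCG rat above every water rat (limma adjusted p = 0.334), and Ptprc and Cd52, which most leukocytes make, by -0.29 and -0.18 (limma adjusted p = 0.435 and 0.713). Ptprc differed by -0.19 without water_237, and Cd52 by -0.076 without EGCG_236. The sum of the 10 genes was 1456 to 1500 in EGCG rats and 1679 to 2022 in water rats. Without S100a8, left out after the values were seen, the sums overlapped (1198 to 1271 in EGCG rats, 1209 to 1345 in water rats). S100a8 had the largest difference of the list, so that this overlap is not a separate result either.

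Of 13 intestinal and gastric genes, 5 passed the filter and 0 passed the test, with 4 differences below 0 and a median of -0.15. Guca2a, guanylin, differed by 0.21, Vil1, villin, by -0.22, Cdx2, an intestinal transcription factor, by -0.15 and Tff1, a gastric trefoil peptide, by -0.094 (limma adjusted p = 0.573, 0.615, 0.676 and 0.827). With 1 rat left out, the differences ran from 0.14 to 0.31 for Guca2a (in the 5 fits where it passed the filter), -0.34 to -0.12 for Vil1, -0.19 to -0.088 for Cdx2 and -0.17 to -0.022 for Tff1. The sums of the list overlapped (1111 to 1979 in EGCG rats, 1342 to 1802 in water rats). The part of these cells in the bile duct markers was not tested.

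Among genes that are not markers, the 8 whose profile over the 6 rats lay nearest to that of Krt19 were named, each profile being centered on its own mean and compared by root mean square distance in log2 units. They were Col6a1 (distance 0.33), S100a11 (0.37), Cx3cl1 (0.39), Tagln2 (0.41), Fblim1 (0.42), Txnip (0.43), Ms4a4a (0.43) and Krt20 (0.44). Tspan8 was the nearest of the markers (0.45, 10th among all genes), and Krt8 the farthest (0.76), since its range was narrow. Genes chosen for a profile near that of Krt19 share its lower EGCG values and its low water_227 by that choice. Of the 8, 3 passed the threshold, where 0.566% of all genes did, and the count is not a separate result. Ms4a4a, a membrane protein of myeloid cells, fell by 1.42 (limma adjusted p = 0.00635). S100a11, a calcium-binding protein, fell by 1.33 (limma adjusted p = 0.0197). Fblim1, a filamin-binding adaptor of cell adhesions, fell by 1.12 (limma adjusted p = 0.0304). S100a11 missed it without EGCG_228, EGCG_234 or water_237 (limma adjusted p of 0.0609, 0.0814 and 0.0593), and Fblim1 without EGCG_228, EGCG_234, water_224 or water_237 (0.0753, 0.156, 0.0745 and 0.0965). Col6a1, a chain of collagen VI, stood at 8.53, 7.74 and 7.70 in EGCG_228, EGCG_234 and EGCG_236, against 9.14, 8.40 and 9.12 in water_224, water_227 and water_237. As in Krt19, water_227 lay below EGCG_228. Cx3cl1, the membrane-bound chemokine fractalkine, stood at 7.66, 7.07 and 7.36 in the EGCG rats, against 8.51, 7.84 and 8.53 in the water rats, with water_227 again the lowest water rat, and its groups did not overlap. Both genes share the 6 arrays and their scaling with Krt19, and nothing about common control can be read from the distance.

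**Figure D4:**
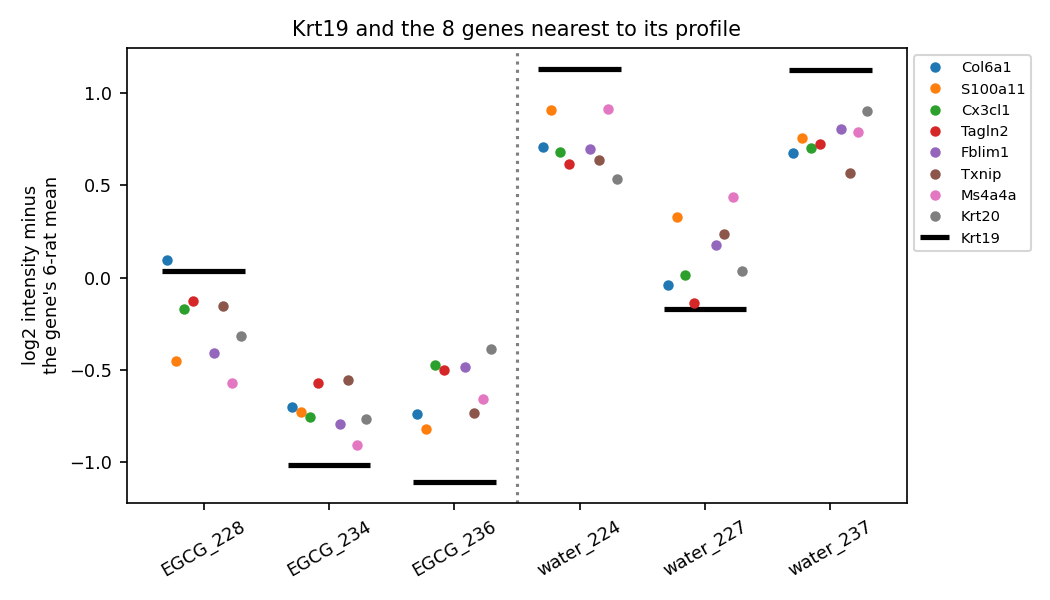
Log2 intensity minus the gene's 6-rat mean, for Krt19 (black bars) and the 8 genes nearest to its profile (points), in each EGCG and water rat. In all 9 genes water_227 is the lowest water rat, which the choice of genes by profile favors. Krt19 has the widest range, from EGCG_236 to water_224.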

How the data were processed

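RNA from 6 livers was read on Illumina bead arrays. The authors deposited linear intensities for 22523 probes, neither background-subtracted nor scaled, as the values show, and a table of their own normalized intensities, used as an alternative. Scanner software and normalization method were not given in the sources used here. No detection p-values or batches were used.

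From the non-normalized intensities, log2 values were computed with limma 3.58.1 (R 4.3.3): normexp with offset 50, then quantile normalization. The 13514 probes whose mean reached the 40th percentile (log2 6.39) were kept. Several named genes lay little above it, such as Cpb1 (mean 6.40), Guca2a (6.42), Upk1b (6.43), Bnc1 and Cd52 (6.44 each), Tff1 (6.46), Slc10a2 (6.52), Elf3 (6.53) and Cldn4 (6.58). Whether such probes were above background is unknown, and a small difference there does not show that a gene was unchanged. The platform annotation gave 1 symbol for 13793 probes, several for 0 and none for 8730, and a gene is its brightest probe. limma (lmFit, eBayes with an intensity trend, two-sided, no covariates) compared 3 EGCG rats with 3 water rats, Benjamini-Hochberg adjusted over the 13514 probes, with a threshold of 0.05. The number of arrays limits the precision, and p-values cover the spread between these rats. The scripts were tested on simulated data. Before normalization, no pair of arrays had more than 1 probe with exactly equal intensities, as deposited.

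The members and lists were chosen with earlier results of these data known. Named were all members, in each list the genes past the threshold and up to 4 with the smallest p, 15 key genes whatever their value (1 is not reported here), and the 8 nearest to Krt19. Alternatives covered background correction, normalization, filter, variance model, array weights, the authors' table, the mean of a gene's probes and leaving out each rat.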

Additional observations from a re-analysis of the deposited data

How the results depend on the processing

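All 7 bile duct markers kept a difference below 0, and 0 passed the threshold, under each of the 11 processing alternatives and with each of the 6 rats left out (limma; all 7 had an unadjusted p under 0.05 as reported). Unadjusted, the limma p of Krt8 was above 0.05 with median scaling (0.119) and without any 1 rat but EGCG_236 (0.0536 to 0.0762). That of Prom1 was above 0.05 without EGCG_234, water_224 or water_237 (0.0987, 0.0589 and 0.0882). The lowest limma adjusted p was 0.0634 for Tspan8 without EGCG_228, and its highest 0.331. The median difference of the markers was -0.63 as reported, -0.56 to -0.64 under other processing and -0.44 (without water_237) to -0.78 with a rat left out. Of the wider lists, 2 genes passed as reported, and 1 to 2 with a rat left out, 1 without EGCG_228, EGCG_234 or water_227, where Vim was lost. Array weights and the fit without a trend called 3 each. The call of Vim was lost with median scaling (-1.17, limma adjusted p = 0.131). Of the 6 named genes called outside the biliary lists, Dcn, Vwf and S100a11 also missed the threshold with median scaling (limma adjusted p = 0.103, 0.117 and 0.0548) and Ptgis without a trend (0.0515). Genes that passed under some alternatives only were Msln (array weights, without EGCG_236), Cd63 (no trend, array weights), Krt20 (median scaling), Cpa1 (median scaling, without water_224), Cela1 (without water_227), S100a8 (array weights, without water_237), Txnip (robust trend), Timp1 (robust trend, array weights, without EGCG_236), Lum (array weights), and Ttr and Cyp2e1 (without EGCG_236), with limma adjusted p of 0.0093 to 0.0499. Over all genes, 52 were called as reported, 141 with array weights, 34 without a trend, and 8 to 158 with a rat left out; the share of differences below 0 was 48.9% as reported and 54.4% with median scaling.

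Some small differences turned sign, none of them called. With a rat left out, Alb ran from -0.063 to 0.21, Hes1 from -0.24 to 0.26, Hnf4a from -0.30 to 0.16, Bnc1 from -0.059 to 0.043, Upk1b from -0.14 to 0.021 and Cpb1 from -0.084 to 0.16 (in the 3 fits where it passed the filter). With array weights, Hes1 was 0.055 and Hnf4a 0.054. Relative to Krt8, in settings added after seeing the data, Krt7 was 0.049 with no background correction, and with the authors' normalized intensities Krt7 was 0.037 and Prom1 0.0032. The cause was not tested. No paired analysis was possible because the groups share no rat numbers.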
